A study of Homo sapiens with 24 samples.

Results

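SR4 against vehicle in PANC1 cells is a 24 h drug comparison from a bulk RNA sequencing experiment on compounds that act on cellular energy supply, in cell lines of pancreatic ductal adenocarcinoma. It consists of 6 of the 24 libraries of the experiment, 3 of PANC1 cells given vehicle and 3 of PANC1 cells given 5 uM SR4, and it was read across all 25168 genes of the PANC1 count table. Libraries were assigned to these groups by the cell line and treatment in their labels. The experiment also treated PANC1 with 300 uM lonidamine or with both compounds, and treated the line BXPC3 in the same 4 ways. Each group held 3 libraries. All cells grew in low-glucose medium with fetal bovine serum, and no other agent or engineered allele was listed for any group. The labels do not say whether the libraries of a group came from separate cultures, so the p-values below rest on differences among these libraries alone, and those may be technical. PANC1 is a single established line without CDKN2A, and BXPC3 a single line without SMAD4, so neither stands for pancreatic tumours in general.

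SR4, named here only by its code, has been described as a mitochondrial uncoupler. Such a compound lets protons return to the mitochondrial matrix without passing through ATP synthase, so that respiration continues while less ATP is made. Cells read such a loss of mitochondrial energy through several relays. AMPK responds to AMP and ADP, mTORC1 responds to amino acids and energy, and the kinases of eIF2 respond to mitochondrial and endoplasmic reticulum (ER) stress. When eIF2 is phosphorylated, bulk translation falls and the mRNA of ATF4 is translated better. ATF4, paired with C/EBP proteins, then drives genes of amino acid synthesis, amino acid import and tRNA charging. This programme is the integrated stress response. Pancreatic ductal carcinoma cells depend on glucose uptake, autophagy and lipid synthesis, and each of these has its own transcription factors.

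Library totals ran from 8873041 to 9541034 counts with vehicle and from 9747389 to 9826599 with SR4, and 12514 genes had enough counts to be tested. Levels are CPM, the count per 1e6 counts of the scaled library size; after a mean level, ± gives the SD over 3 libraries, and after a log2 change it gives the standard error. The line labels were checked on SMAD4, at 51.4 ± 1.89 to 78 ± 5.1 CPM in PANC1 and at 0 in the vehicle and SR4 libraries of BXPC3. CDKN2A was at 0 in all 6 libraries compared, but without its level in BXPC3 that does not tell the lines apart. No marker of pancreatic acinar, endocrine or endothelial cells had enough counts to be tested, and each of these lists summed to at most 0.426 CPM per library. Fibroblast markers summed to between 94.5 and 100.1 CPM with vehicle and between 17.5 and 20.4 CPM with SR4, and all 4 tested members were lower: COL1A1 went from 81.9 ± 2.99 to 12.2 ± 0.937 CPM, THY1 from 8.49 ± 0.257 to 3.91 ± 0.442 CPM, COL3A1 from 3.82 ± 0.795 to 1.88 ± 0.361 CPM and PDGFRB from 1.79 ± 0.505 to 0.838 ± 0.0993 CPM. COL1A2, DCN, LUM, PDGFRA and FAP were at 0. The call of PDGFRB was lost without vehicle replicate 3 (-0.90). Immune markers summed to between 122.6 and 131.4 CPM and between 188.4 and 222.6 CPM, nearly all of it CD68, a lysosomal protein. Of the 12 immune markers 6 were at 0, among them CD3D, CD3E and CD4. Of the 3 tested, 2 rose and 1 fell (log2 changes from -1.27 to 0.996). CD8A was called higher, but the call was lost without vehicle replicate 1 or 2 or SR4 replicate 1 or 2 (0.77 to 0.94). In cultures measured in bulk, fewer cells of a type and less RNA per cell cannot be told apart. SR4 replicate 2 stood somewhat apart from the other SR4 libraries. Chi-square per degree of freedom was 2.75 and 3.39 for its pairs and 1.61 for replicates 1 and 3, against 1.62 over the vehicle libraries. Without it, 4284 genes were higher and 4495 lower.

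SR4 changed the level of most measured genes. By edgeR's quasi-likelihood test at a Benjamini-Hochberg adjusted p of 0.05, 4376 genes (35.0% of those tested) were higher and 4596 (36.7%) lower, together 71.7%. The libraries of the groups did not overlap for 9160 genes, 73.2%. Most changes were small: the median size was 0.43 on the log2 scale and the median change -0.02. At least a 2-fold rise was called for 1045 genes (8.35%) and at least a 2-fold fall for 1057 (8.45%). Beyond 4-fold the balance tipped upward, with 232 genes higher and 139 lower, and beyond 8-fold with 74 higher and 18 lower. A single value compared 3 against 3 has 10 splits and cannot reach an exact permutation p below 0.1, so each call rests on the fit across all genes. The counts and medians of the gene lists below stand against these shares and this median. CPM is relative to the scaled library, so a change in total RNA per cell cannot be seen in these values.

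**Figure D1:**
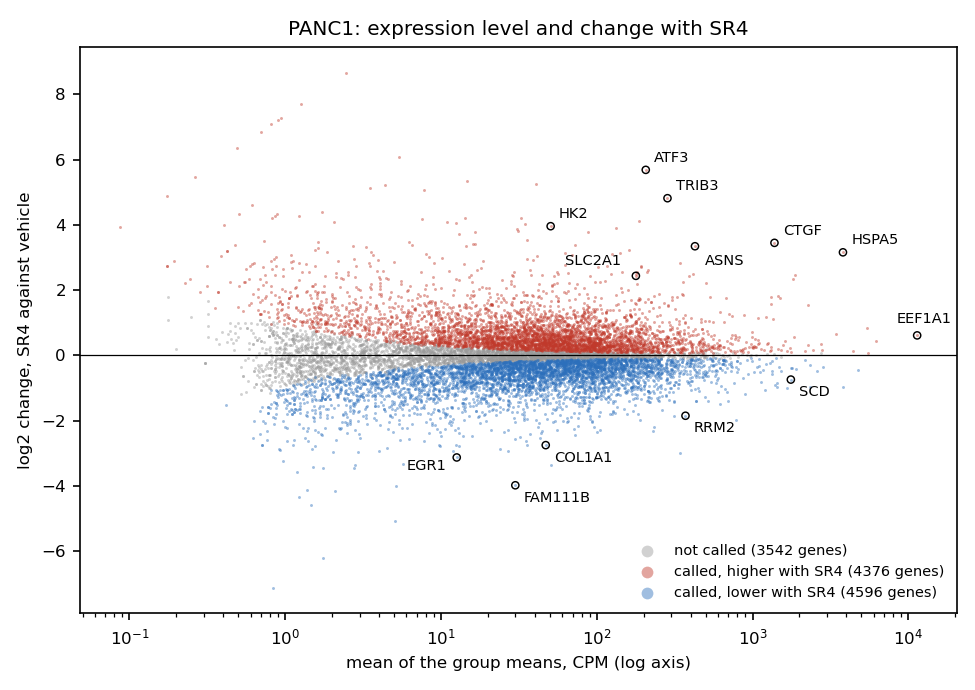
Log2 change of each tested gene (vertical axis, SR4 over vehicle) against its mean level in CPM over the 6 libraries (horizontal axis, log scale). Points are genes, coloured by whether they were called higher (4376), lower (4596) or not called (3542); ATF3, TRIB3 and HK2 lie near the top and FAM111B, EGR1 and COL1A1 near the bottom.

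The 15 largest rises included the stress genes ATF3, TRIB3, NUPR1, DDIT3 and CHAC1 and the hexokinase genes HKDC1 and HK2. ATF3, a stress-induced transcription factor, was at 8.92, 6.95 and 7.66 CPM in the vehicle libraries and 398, 409.9 and 406 CPM in the SR4 libraries. It rose by 5.68 ± 0.06 on the log2 scale (adjusted p = 2.1e-31), or 51.4-fold. HKDC1, a hexokinase-like enzyme, was at 0.531, 0.785 and 0.777 CPM in the vehicle libraries and 29.8, 27.7 and 29.1 CPM in the SR4 libraries (log2 change 5.35 ± 0.21). TRIB3, a pseudokinase that restrains ATF4 and AKT signalling, was at 18.8, 22.6 and 17.1 CPM in the vehicle libraries and 539.9, 566 and 541 CPM in the SR4 libraries (log2 change 4.81 ± 0.06). In ATF3, HKDC1 and TRIB3 the lowest SR4 library exceeded the highest vehicle library many-fold. The rule for the 15 largest rises required no overlap. Others were RAB39B (5.25 ± 0.12), a small GTPase, BEX2 (4.07 ± 0.14), the lysosomal protein LAMP3 (4.20 ± 0.10), the stress-induced chromatin protein NUPR1 (4.11 ± 0.07), the MAP kinase phosphatase DUSP8 (4.08 ± 0.19) and SLFN5 (4.03 ± 0.11), a member of the Schlafen family. ULBP1, a ligand of the NKG2D receptor of natural killer cells, rose by 3.87 ± 0.09. C17orf107 rose by 4.20 ± 0.15, but it lies inside the span of CHRNE on the opposite strand, and without stated strandedness their reads cannot be told apart. Among the genes with 0 counts in all 3 vehicle libraries, INHBE, the beta E subunit of activin, was at least 44.9-fold higher with SR4 and the hormone FGF21 at least 12.7-fold higher, each against a floor of 3 counts over the vehicle group.

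The largest falls spread over replication, growth signalling and matrix genes, among others. FAM111B, a protease that varies with the cell cycle, was at 55.6, 60.6 and 53 CPM in the vehicle libraries and 3.14, 3.94 and 3.62 CPM in the SR4 libraries. It fell by 3.98 ± 0.11 on the log2 scale (adjusted p = 5.7e-22). EGR1, a growth factor-induced transcription factor, was at 26.3, 21.4 and 20.2 CPM in the vehicle libraries and 2.72, 2.13 and 2.89 CPM in the SR4 libraries (log2 change -3.13 ± 0.16). COL1A1, the alpha 1 chain of type I collagen, was at 81, 85.2 and 79.4 CPM in the vehicle libraries and 12.7, 11.1 and 12.7 CPM in the SR4 libraries (log2 change -2.75 ± 0.08). None of these genes overlapped between the groups, which the rule for the 15 largest falls required. The 15 largest falls also held the WNT receptor FZD4 (-2.88 ± 0.11), the glucose transporter SLC2A12 (-2.91 ± 0.18), the matrix protease ADAMTS15 (-3.35 ± 0.10), the Notch-modifying enzyme LFNG (-2.75 ± 0.17), the transcription factor E2F2 (-2.73 ± 0.16) and the CDK inhibitor CDKN2C (-2.61 ± 0.09).

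Genes of the integrated stress response rose, transcription factors and targets alike. Of 12 stress transcription factors 10 rose and 2 fell, with a list median of 1.76. ATF4 was at 162, 159.6 and 146 CPM in the vehicle libraries and 558, 565 and 553 CPM in the SR4 libraries. Its mRNA rose by 1.84 ± 0.04 (adjusted p = 7.1e-25). DDIT3, which encodes CHOP, was at 15.7, 18.2 and 15.7 CPM in the vehicle libraries and 243, 256 and 249 CPM in the SR4 libraries. It rose by 3.92 ± 0.06 (adjusted p = 1.5e-28), and both genes were separated by group in every library. ATF6, a factor that senses protein folding in the ER, rose by 1.57 ± 0.04. The factors that fell were ATF5 (-1.60 ± 0.06), itself an ATF4 target tied to mitochondrial import, and CREB3L2 (-0.32 ± 0.07). Members that go against the direction of their list are named here and in the lists that follow where they number 5 or fewer. They and other members singled out below, such as the eIF2 kinases, MDM2 and SREBF2, were chosen after their values were seen.

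ATF4 targets rose nearly as a block: 38 of 41 rose and 3 fell, with a median of 1.98. The list was assembled with the response of these cells known, so its direction is a description. ASNS, asparagine synthetase, was at 80.6, 81.7 and 67.3 CPM in the vehicle libraries and 776, 752 and 803 CPM in the SR4 libraries. It rose by 3.34 ± 0.05 (adjusted p = 3.5e-28), or 10.1-fold. SESN2, which restrains mTORC1 when amino acids are short, was at 12, 14.5 and 12.2 CPM in the vehicle libraries and 134, 130.0 and 135 CPM in the SR4 libraries (log2 change 3.37 ± 0.06). CHAC1, which breaks down glutathione, was at 4.56, 4.15 and 3.67 CPM in the vehicle libraries and 61.6, 57.6 and 54.9 CPM in the SR4 libraries (log2 change 3.81 ± 0.10). The SR4 libraries of all 3 genes lay in a narrow band far above the vehicle libraries. PPP1R15A, the stress-induced subunit that guides a phosphatase to eIF2, was at 30.2, 32.3 and 30.7 CPM in the vehicle libraries and 298, 285 and 291 CPM in the SR4 libraries (log2 change 3.23 ± 0.05). The targets that fell were SLC7A5 (-0.10 ± 0.03), a transporter of large neutral amino acids, PSPH (-0.55 ± 0.06), the last enzyme of serine synthesis, and ATF5.

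ATF4 binds with C/EBP partners to the C/EBP-ATF response element, written TGATGNAA and searched on both strands. The following stretches before the start of 4 members of the ATF4 target list that rose are shown because they hold it, with the match in capitals; they are RefSeq sequences of GRCh38.p14, printed 5′ to 3′ on the strand of the gene.
ASNS: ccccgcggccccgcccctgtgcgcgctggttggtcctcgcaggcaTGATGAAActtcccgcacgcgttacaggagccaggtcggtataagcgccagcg
CHAC1: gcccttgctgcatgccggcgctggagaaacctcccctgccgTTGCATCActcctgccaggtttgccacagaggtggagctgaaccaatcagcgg
ATF3: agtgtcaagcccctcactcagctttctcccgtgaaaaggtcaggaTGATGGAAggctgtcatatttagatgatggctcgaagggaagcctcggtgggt
HERPUD1: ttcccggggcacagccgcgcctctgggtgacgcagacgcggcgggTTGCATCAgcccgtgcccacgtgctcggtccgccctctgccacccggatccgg
The ASNS stretch is chr7:97872424-97872521, minus strand, with the match beginning 68 bases before the start. The CHAC1 stretch is chr15:40953221-40953314, plus strand, with the match 209 bases before the start and on the opposite strand. The ATF3 stretch is chr1:212565171-212565268, plus strand, and the HERPUD1 stretch is chr16:56931921-56932018, plus strand, where the match is again on the opposite strand. Over windows of 300 bases, 250 before and 50 after the start, the motif was in 7 of 32 ATF4 targets with a promoter in the table (21.9%), in 162 of 10235 tested genes (1.58%) and in 1003 of 27305 promoters in all (3.67%). It was in 36 of 811 genes that rose at least 2-fold (4.44%), in 10 of 813 that fell at least 2-fold (1.23%) and in 116 of the 8611 other tested genes (1.35%). Outside the ATF4 target list it was in 30 of 785 genes that rose at least 2-fold, or 3.82%. A match is a description of letters and not a bound site.

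Upstream of ATF4 the mRNA of several sensors was not called as changed. EIF2AK1 (HRI), EIF2AK3 (PERK) and EIF2AK4 (GCN2), kinases of eIF2, were not called, nor was OMA1, the protease that starts the mitochondrial relay. EIF2AK1 was at 418 ± 8.08 to 402 ± 12.5 CPM and EIF2AK3 at 27.5 ± 0.895 to 30.1 ± 2.29 CPM; without SR4 replicate 2 both were called, at -0.08 and 0.19. KIAA0141, the older symbol of DELE1, the messenger between mitochondria and HRI, rose by 0.34 ± 0.06. Over the 14 genes of eIF2 kinases, phosphatase subunits and mitochondrial relay 8 rose and 1, EIF2AK2, fell (-0.21 ± 0.05), with a median of 0.18. The largest rises were in the phosphatase subunits PPP1R15A, given above, and PPP1R15B (0.91 ± 0.04).

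**Figure D2:**
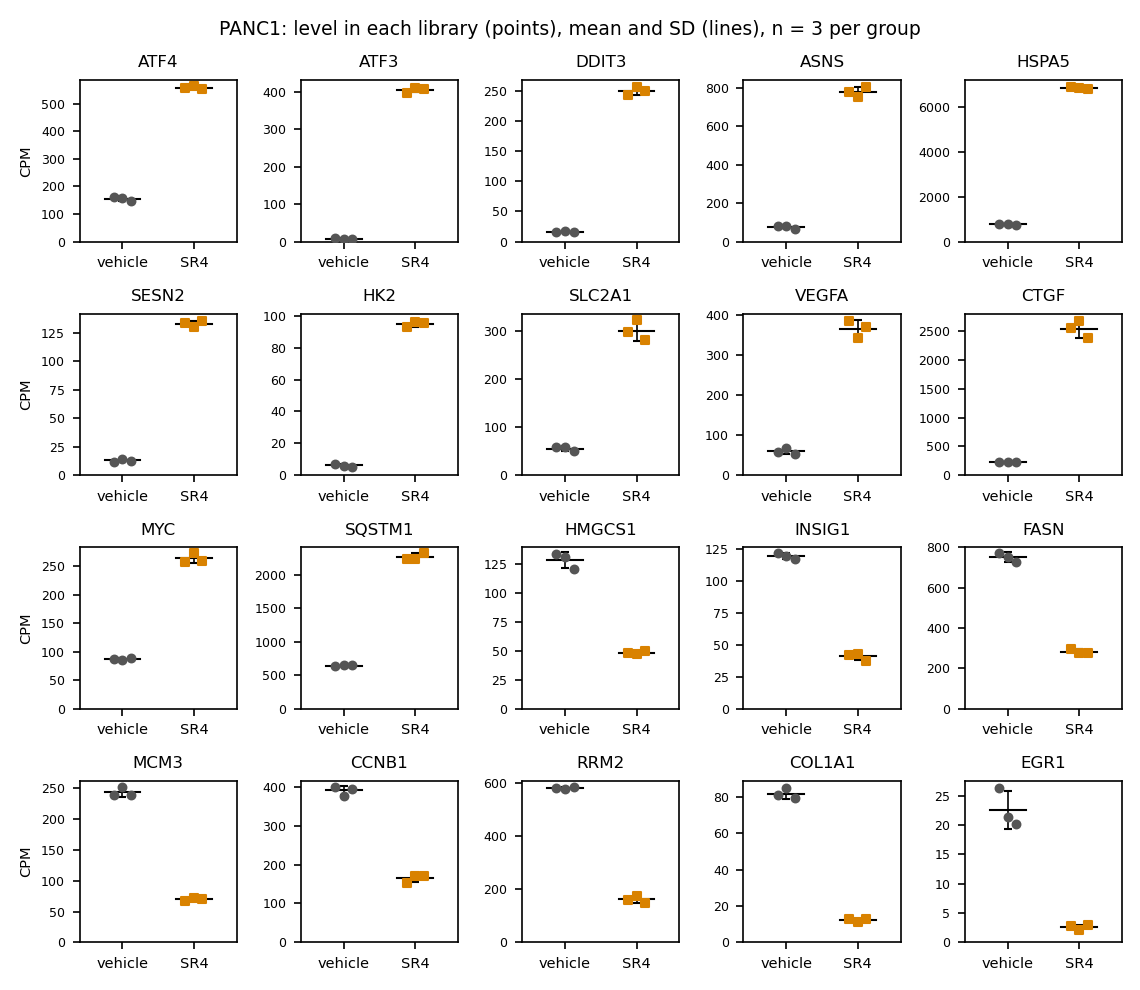
Level in CPM (vertical axes, each from 0) of 20 genes in the 3 vehicle and 3 SR4 libraries of PANC1. Points are libraries, horizontal bars group means and whiskers the SD; in none of the 20 genes do the groups overlap, and HMGCS1, INSIG1, FASN, MCM3, CCNB1, RRM2, COL1A1 and EGR1 are lower with SR4 while the other 12 are higher.

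Amino acid supply was reshaped enzyme by enzyme. Among enzymes of amino acid metabolism 12 of 18 rose and 5 fell (median 1.57). PCK2, the mitochondrial enzyme that makes phosphoenolpyruvate, rose by 3.14 ± 0.09 from 12.8 ± 2.97 to 112 ± 4.48 CPM. PYCR1, which completes proline synthesis, rose by 1.60 ± 0.04, and GOT1, the cytosolic aspartate aminotransferase, by 1.87 ± 0.04. The falls included GLUD1 (-0.13 ± 0.03), GOT2 (-0.50 ± 0.05) and OAT (-0.52 ± 0.04), mitochondrial enzymes that handle glutamate and ornithine, and GLUL (-0.65 ± 0.07), which makes glutamine. In serine synthesis and one-carbon metabolism 7 of 16 genes rose and 5 fell (median 0.05). PHGDH, the first enzyme of serine synthesis, was at 19.1, 19.2 and 16.9 CPM in the vehicle libraries and 69.3, 68.8 and 79.4 CPM in the SR4 libraries (log2 change 1.98 ± 0.07). PSAT1, the next enzyme, rose by 1.43 ± 0.04, and the mitochondrial folate enzyme MTHFD2 by 1.04 ± 0.04. MAT2A, which makes S-adenosylmethionine, was at 349, 405 and 402 CPM in the vehicle libraries and 87.7, 60.2 and 103 CPM in the SR4 libraries (log2 change -2.20 ± 0.12), with SR4 replicate 2 the lowest of the SR4 libraries. The other members that fell were PSPH, MTHFD1 (-0.59 ± 0.04), GLDC (-0.71 ± 0.16) and SHMT1 (-1.23 ± 0.10), the cytosolic counterpart of SHMT2, which rose (0.40 ± 0.05).

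Import and charging of amino acids rose together with these enzymes. Of 14 amino acid transporters 10 rose and 3 fell (median 0.80). SLC7A11, the cystine importer, was at 11.4, 12.9 and 11.6 CPM in the vehicle libraries and 158, 152 and 183 CPM in the SR4 libraries. It rose by 3.79 ± 0.10 (adjusted p = 5.3e-23), the largest change of the list. SLC3A2, its partner chain, rose by 1.44 ± 0.04, SLC1A4, a carrier of neutral amino acids, by 1.96 ± 0.07 and SLC38A2, an importer of small neutral amino acids, by 1.31 ± 0.04. The transporters that fell were SLC7A5, SLC36A4 (-0.51 ± 0.08) and SLC36A1 (-1.0 ± 0.13). Of 20 cytosolic tRNA synthetase genes 16 rose and 2 fell (median 0.59). AARS, which charges alanine tRNA, was at 181, 182 and 173 CPM in the vehicle libraries and 821, 813 and 836 CPM in the SR4 libraries (log2 change 2.21 ± 0.04). SARS, for serine, rose by 1.82 ± 0.04, CARS, for cysteine, by 1.79 ± 0.04 and GARS, for glycine, by 1.77 ± 0.03. The synthetases for histidine, HARS (-0.85 ± 0.05), and arginine, RARS (-0.33 ± 0.04), fell. The 17 mitochondrial synthetase genes did not follow: 5 rose and 6 fell (median -0.02), among them LARS2 (-1.13 ± 0.10) and CARS2 (-1.02 ± 0.09).

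All 7 tested genes of the list of stress-secreted hormones and growth factors rose, with a median of 2.80. GDF15, a hormone that lowers appetite, was at 30.04, 29.4 and 27.1 CPM in the vehicle libraries and 247, 268 and 245 CPM in the SR4 libraries (log2 change 3.13 ± 0.06). VEGFA, the vascular growth factor, was at 57.7, 66.9 and 53.8 CPM in the vehicle libraries and 384, 342 and 369 CPM in the SR4 libraries (log2 change 2.62 ± 0.06). STC2, stanniocalcin 2, rose by 2.18 ± 0.07. Each of these genes was separated by group, as were the brakes on mTORC1 that follow. Of 13 mTORC1 brakes 9 rose and 2 fell (median 0.69). DDIT4, which activates the TSC complex, was at 51.7, 53.7 and 44.9 CPM in the vehicle libraries and 321, 358 and 327 CPM in the SR4 libraries (log2 change 2.74 ± 0.05). EIF4EBP1, the repressor of cap-dependent translation, rose by 1.15 ± 0.08 and FLCN, folliculin, by 1.12 ± 0.07. SESN1 (-0.24 ± 0.10) and DEPDC5 (-0.38 ± 0.14) fell. Neither call was firm: that of SESN1 was lost without vehicle replicate 3, SR4 replicate 1 or SR4 replicate 2 (-0.18, -0.19 and -0.24), and that of DEPDC5 without vehicle replicate 1, vehicle replicate 3 or SR4 replicate 3 (-0.26, -0.31 and -0.34). Of 10 genes for AMPK subunits and upstream kinases 4 rose and 2 fell. PRKAB2, a beta subunit, rose most of them, by 2.19 ± 0.07. PRKAA1, the catalytic alpha 1 subunit, was not called (114 ± 2.55 to 120.3 ± 0.979 CPM), and CAMKK2, an upstream kinase, fell by 0.51 ± 0.06.

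In the ER the largest change among the listed genes was in the chief chaperone. HSPA5, which encodes BiP, an HSP70 of the ER lumen, was at 791, 772 and 737 CPM in the vehicle libraries and 6888, 6825 and 6802 CPM in the SR4 libraries. It rose by 3.16 ± 0.03 (adjusted p = 4.3e-32), or 8.92-fold, to a mean of 6838 CPM. Of 25 ER chaperone, degradation and unfolded protein response genes 13 rose, 6 of them at least 2-fold, and 7 fell. The median was only 0.19. ERN1 (IRE1), a sensor of unfolded protein, rose by 2.48 ± 0.08, and HERPUD1, which serves degradation at the ER, by 2.52 ± 0.07. Some other genes that commonly rise with BiP moved far less: HSP90B1 changed by 0.48 ± 0.03, PDIA4 by -0.19 ± 0.04 and SDF2L1 by -0.50 ± 0.15, while MANF (42.3 ± 2.32 to 42.1 ± 5.04 CPM) was not called. These members were picked after their values were seen and do not stand for the whole list. The HSPA5 promoter is shown because it holds the ER stress response element, which is CCAAT, then 9 bases of any kind, then CCACG, here in capitals (RefSeq, GRCh38.p14, chr9:125241346-125241454, minus strand, 66 bases before the start).
HSPA5: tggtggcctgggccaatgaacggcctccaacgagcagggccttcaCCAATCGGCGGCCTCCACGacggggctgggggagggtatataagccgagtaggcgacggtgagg
This element, which contains a CCAAT box, was in 7 of 24 promoters of the ER list (29.2%) and in 14 of all 10235 tested genes (0.137%). Only 2 of 811 genes that rose at least 2-fold held it (0.247%), against 11 of 8611 other tested genes (0.128%). Outside the ER list it was in 0 of 805 genes that rose at least 2-fold.

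Protein quality control in the cytosol moved the other way. Of 19 cytosolic heat shock chaperone genes 13 fell and 5 rose (median -0.37). HSPA8, the constitutive HSP70, was at 3156, 2982 and 3063 CPM in the vehicle libraries and 1566, 1675 and 1488 CPM in the SR4 libraries (log2 change -0.96 ± 0.04). DNAJA1, its co-chaperone, fell by 1.39 ± 0.04, HSP90AA1, an HSP90, by 0.83 ± 0.04 and STIP1, which links HSP70 to HSP90, by 0.67 ± 0.04. HSPA1A, inducible HSP70, fell by 0.45 ± 0.06; it is nearly identical to HSPA1B, and their reads may have been split. The members that rose were HSPB8 (0.69 ± 0.22), DNAJB4 (0.52 ± 0.08), HSF2 (0.32 ± 0.07), HSF1 (0.25 ± 0.05) and DNAJB1 (0.10 ± 0.04). The call of HSPB8 was lost without SR4 replicate 3 (0.51), and that of DNAJB1 without SR4 replicate 2 (0.04) or any 1 of the vehicle libraries (0.09 to 0.11). Of 31 proteasome subunit genes 23 fell and 1, PSMC4 (0.36 ± 0.03), rose (median -0.32). PSMC2, an ATPase of the proteasome cap, fell by 0.65 ± 0.05, and PSMD1, PSMD11 and PSMA4 fell by 0.54 ± 0.04, 0.49 ± 0.04 and 0.53 ± 0.04. In mitochondria the chaperone HSPA9 (mortalin) rose by 1.17 ± 0.03 from 752 ± 23.3 to 1696 ± 38.1 CPM and the protease LONP1 by 0.95 ± 0.05, while HSPE1, the partner of the HSP60 chaperonin, fell by 1.37 ± 0.08. Over the 13 mitochondrial chaperones and proteases 7 rose and 4 fell.

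Autophagy genes rose broadly and in part strongly: 21 of 30 rose and 3 fell, with a median of 0.26. SQSTM1 (p62), a receptor for cargo, was at 636, 651 and 648 CPM in the vehicle libraries and 2236, 2244 and 2329.6 CPM in the SR4 libraries (log2 change 1.82 ± 0.03). ULK1, the kinase that starts autophagy, was at 57.6, 67.3 and 56.8 CPM in the vehicle libraries and 359.9, 352 and 359 CPM in the SR4 libraries (log2 change 2.56 ± 0.05). GABARAPL1, an ATG8 family protein, was at 8.39, 8.63 and 10.2 CPM in the vehicle libraries and 72.8, 63.4 and 69.9 CPM in the SR4 libraries (log2 change 2.92 ± 0.10). No library of either group fell within the range of the other for these genes. MAP1LC3B, another ATG8 protein, rose by 1.64 ± 0.04. Members that fell were ATG16L1 (-0.15 ± 0.06), ATG7 (-0.31 ± 0.07) and the proton pump subunit ATP6V0D1 (-0.67 ± 0.08); the call of ATG16L1 was lost without vehicle replicate 1 (-0.10) or SR4 replicate 3 (-0.11). Of 13 genes of mitochondrial dynamics and mitophagy 8 rose and 3 fell. The mitophagy receptors BNIP3L (0.92 ± 0.06) and BNIP3 (0.84 ± 0.06) and the fission adaptor FIS1 (0.55 ± 0.07) rose, and DNM1L, the fission dynamin, fell by 0.31 ± 0.04.

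The NRF2 targets did not move as 1 group. NRF2 activates genes of glutathione, thioredoxin, iron and NADPH metabolism. Of 20 targets 11 rose and 3 fell (median 0.59). HMOX1, which degrades heme, was at 86.2, 83.1 and 80.2 CPM in the vehicle libraries and 578, 630.1 and 579 CPM in the SR4 libraries. It rose by 2.84 ± 0.04 (adjusted p = 8.7e-28). TXNRD1, thioredoxin reductase, was at 669, 648 and 635 CPM in the vehicle libraries and 1927, 1994 and 1948 CPM in the SR4 libraries (log2 change 1.59 ± 0.03), and SRXN1, sulfiredoxin, rose by 1.94 ± 0.05. NQO1, a quinone reductase used as a standard NRF2 readout, was at 129, 121 and 124 CPM in the vehicle libraries and 121, 126 and 110.2 CPM in the SR4 libraries and was not called; the groups overlapped. TXN (-0.18 ± 0.05), EPHX1 (-0.59 ± 0.10) and PGD (-0.83 ± 0.05), an enzyme of the pentose phosphate pathway, fell. The ferritin chains FTH1 (1.55 ± 0.03) and FTL (1.77 ± 0.04) rose, with the reserve that both have many processed copies that can share reads. The other 6 of 9 iron genes fell, among them the iron sensor ACO1 (-0.87 ± 0.05). The TXNRD1 promoter holds the core of the antioxidant response element, TGACNNNGC, in capitals (RefSeq, GRCh38.p14, chr12:104215635-104215733, plus strand).
TXNRD1: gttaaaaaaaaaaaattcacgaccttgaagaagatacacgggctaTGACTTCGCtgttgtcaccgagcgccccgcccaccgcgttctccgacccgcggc
This short motif was in 5 of 15 NRF2 target promoters (33.3%) and in 15.3% of tested genes, 1567 of 10235. It was no more frequent among genes that rose at least 2-fold, 120 of 811 (14.8%), than among other tested genes, 1332 of 8611 (15.5%).

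Glucose handling changed at its entry and far less below it. SLC2A1 (GLUT1), the main glucose importer, was at 57.7, 59 and 49.9 CPM in the vehicle libraries and 298, 323 and 282 CPM in the SR4 libraries. It rose by 2.44 ± 0.06 (adjusted p = 2.5e-23), while the other 4 tested glucose transporters fell. HK2, hexokinase 2, which traps glucose in the cell, was at 7.22, 5.83 and 5.22 CPM in the vehicle libraries and 92.9, 96.4 and 95.7 CPM in the SR4 libraries. It rose by 3.96 ± 0.09 (adjusted p = 4.2e-24), or 15.5-fold, and neither gene overlapped between groups. Of 19 glycolysis enzyme genes 10 rose and 6 fell (median 0.18). ENO2, an enolase, rose by 1.21 ± 0.07, and PGAM1, phosphoglycerate mutase, fell by 0.78 ± 0.04. The 5 tested genes of lactate production and export all fell (median -0.43). LDHA, lactate dehydrogenase A, was at 1621, 1575 and 1549 CPM in the vehicle libraries and 1046, 1166 and 1007 CPM in the SR4 libraries (log2 change -0.56 ± 0.05). SLC16A3 (MCT4), the lactate exporter, fell by 1.27 ± 0.04 from 355 ± 7.93 to 147 ± 10.2 CPM.

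Pyruvate entry showed changes in both directions. PDK1, which shuts down pyruvate dehydrogenase, rose by 1.08 ± 0.07, and MPC1, a subunit of the mitochondrial pyruvate carrier, by 0.89 ± 0.12. DLAT, a core subunit of pyruvate dehydrogenase, fell by 0.43 ± 0.04. Of the 15 genes in all, 4 rose and 8 fell. PDK4 (0.625 ± 0.184 to 0.211 ± 0.186 CPM) and TXNIP (1.68 ± 0.12 to 0.979 ± 0.123 CPM), a glucose-responsive target of MondoA, were lower by 1.51 ± 0.62 and 0.77 ± 0.35, but neither call was firm. That of TXNIP was lost whichever of the 6 libraries was left out (-0.84 to -0.67), and that of PDK4 without vehicle replicate 2 or 3 or SR4 replicate 1 or 3 (-1.46 to -1.20). ARRDC4, the other standard MondoA target, rose by 0.80 ± 0.21.

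Genes of the mitochondrial oxidative machinery fell by small amounts across complexes. Of 16 ATP synthase genes 15 fell and 1, ATP5G2 (0.16 ± 0.05), rose (median -0.39); the call of ATP5G2 was lost without SR4 replicate 1 or 2 (0.12 each). ATP5J2 was at 48.7, 48.5 and 43.9 CPM in the vehicle libraries and 22, 23.7 and 19.4 CPM in the SR4 libraries (log2 change -1.12 ± 0.08) and ATP5G3, a source of the c-ring, fell by 1.09 ± 0.05. Of 37 complex I subunit genes 26 fell and 2 rose (median -0.27), the latter NDUFS4 (0.21 ± 0.07) and NDUFB5 (0.17 ± 0.05). NDUFS5 fell by 0.84 ± 0.06 and NDUFB3 by 0.98 ± 0.08, more than most. Of 20 complex III and IV genes 13 fell and 1, COX6A1 (0.18 ± 0.06), rose (median -0.24); the call of COX6A1 was lost without vehicle replicate 2 (0.15) or SR4 replicate 2 (0.12). In the tricarboxylic acid cycle 11 of 17 genes fell and 2 rose (median -0.28). IDH3A, an isocitrate dehydrogenase subunit, fell by 0.71 ± 0.05 and SUCLA2, a succinate-CoA ligase, by 0.78 ± 0.07. Of 15 fatty acid oxidation genes 9 fell and 2 rose; CPT1A, the gate of fatty acid entry, was at 418, 405 and 418 CPM in the vehicle libraries and 262, 271 and 260.4 CPM in the SR4 libraries (log2 change -0.65 ± 0.03). The table held no gene of the mitochondrial chromosome, so the subunits encoded there were not analysed here.

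Regulators of mitochondrial mass did not move as 1 group: of 12 genes 6 rose and 5 fell. POLRMT, the mitochondrial RNA polymerase, rose by 0.87 ± 0.06 and GABPA, a factor for nuclear respiratory genes, by 0.57 ± 0.07. TFAM, which packages mitochondrial DNA, fell by 0.42 ± 0.05. PPARGC1A (PGC-1alpha), a coactivator of mitochondrial biogenesis, averaged 0.18 CPM with vehicle and 0.0704 CPM with SR4 and was not tested. UCP2, an inner membrane carrier, was at 86.3, 78.8 and 75.4 CPM in the vehicle libraries and 159, 159.6 and 148 CPM in the SR4 libraries (log2 change 0.95 ± 0.05), and the carriers SLC25A14 and SLC25A30 fell by 0.85 ± 0.14 and 0.87 ± 0.11. For 38 mitochondrial ribosomal protein genes 12 rose and 16 fell (median -0.09).

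Targets of the hypoxia factor HIF moved in a single direction, although no low-oxygen condition was listed: 15 of 19 rose, 4 were not called, and the list median was 0.91. ADM, adrenomedullin, was at 158, 142 and 151 CPM in the vehicle libraries and 546, 600.4 and 515 CPM in the SR4 libraries (log2 change 1.88 ± 0.05). BHLHE40, a transcriptional repressor, rose by 1.27 ± 0.05 from 95 ± 1.03 to 229 ± 18.2 CPM, and LOX, a collagen cross-linking enzyme, by 2.92 ± 0.24. The members not called were CA12, HILPDA, EGLN1 and EGLN3, of which the last 2 are oxygen-sensing prolyl hydroxylases. EGLN1 was called lower in some other settings, such as without vehicle replicate 3 (-0.16) or SR4 replicate 2 (-0.17). The list shares VEGFA, SLC2A1, PDK1 and BNIP3 with the results above. The short element GACGTG was in 3 of 16 promoters of the list (18.8%) and in 1102 of 10235 tested genes (10.8%). Among genes that rose at least 2-fold 90 of 811 held it (11.1%), against 949 of 8611 other tested genes (11.0%).

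Cholesterol synthesis and uptake fell as a whole: 23 of 24 genes fell, none rose, and the median was -1.10. The pathway is under SREBP2, a factor held in the ER when sterols are plentiful. HMGCS1, an early enzyme, was at 134, 132 and 121 CPM in the vehicle libraries and 47.9, 47.6 and 50.02 CPM in the SR4 libraries. It fell by 1.41 ± 0.05 on the log2 scale (adjusted p = 2.4e-19). INSIG1, which retains SREBP2 in the ER and is itself its target, was at 122, 120.2 and 118 CPM in the vehicle libraries and 42.4, 43.1 and 37.8 CPM in the SR4 libraries (log2 change -1.55 ± 0.06). Every vehicle library lay above every SR4 library for both. ACAT2, which makes acetoacetyl-CoA, fell by 1.51 ± 0.05. SREBF2, the gene of SREBP2, was the member not called (135 ± 5.06 to 145 ± 3.62 CPM); it was called higher with DESeq2 size factors (0.10), with only the groups compared (0.11) and without vehicle replicate 1 (0.12), among other settings. The sterol regulatory element written TCACNCCAC was in 1 of 18 promoters of the list (5.56%) and in 110 of 10235 tested genes (1.08%). The 1 promoter was that of SREBF2, so no member called lower held it. It was in 8 of 813 genes that fell at least 2-fold (0.984%) and in 94 of 8611 other tested genes (1.09%).

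Fatty acid synthesis fell with it: 16 of 18 genes fell and none rose (median -0.57). FASN, fatty acid synthase, was at 773, 754 and 727 CPM in the vehicle libraries and 297, 278 and 274 CPM in the SR4 libraries (log2 change -1.41 ± 0.04). ACACA, which makes its substrate malonyl-CoA, fell by 1.38 ± 0.05, ACLY, which makes cytosolic acetyl-CoA, by 1.12 ± 0.04, and the desaturase FADS2 by 1.41 ± 0.06. SCD, stearoyl-CoA desaturase, was at 2316, 2299.6 and 1992 CPM in the vehicle libraries and 1283, 1486 and 1185 CPM in the SR4 libraries (log2 change -0.74 ± 0.06). The libraries of the groups were separate for these genes. Of 5 tested genes of cholesterol efflux 4 rose, among them the exporter ABCA1 (1.87 ± 0.23) and its regulator NR1H2, an LXR (1.10 ± 0.06); MYLIP was not called.

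The cell division programme fell from replication to mitosis. Of 38 genes of the G1/S transition and DNA replication 37 fell and none rose (median -0.98), and of 37 genes of G2/M and mitosis 35 fell and none rose (median -0.81). MCM3, a subunit of the replicative helicase, was at 238, 252 and 238 CPM in the vehicle libraries and 66.4, 71.3 and 70.7 CPM in the SR4 libraries. It fell by 1.81 ± 0.05 on the log2 scale (adjusted p = 1.6e-22). CCNB1, cyclin B1, was at 399, 377 and 395 CPM in the vehicle libraries and 153, 170.1 and 171 CPM in the SR4 libraries (log2 change -1.25 ± 0.04). MKI67, the proliferation marker Ki-67, was at 960.5, 836 and 893 CPM in the vehicle libraries and 436, 468 and 417 CPM in the SR4 libraries (log2 change -1.03 ± 0.07). Groups did not overlap for any of them. PCNA, the polymerase clamp, fell by 1.75 ± 0.05, UHRF1, which maintains DNA methylation, by 1.93 ± 0.07, and the mitotic kinesin KIF20A by 1.69 ± 0.05. The members not called were RFC4, CDC25B and CDC25C. In nucleotide synthesis 17 of 26 genes fell and 3 rose. RRM2, the ribonucleotide reductase subunit that limits deoxynucleotide supply, was at 581, 576 and 585 CPM in the vehicle libraries and 159.8, 174 and 149 CPM in the SR4 libraries (log2 change -1.85 ± 0.04). TYMS, thymidylate synthase, fell by 1.19 ± 0.05. The rises were in CTPS1 (1.07 ± 0.05), IMPDH2 (0.69 ± 0.04) and GART (0.26 ± 0.04). Of 16 homologous recombination and Fanconi genes 14 fell (median -0.71), PALB2 rose by 0.31 ± 0.06 and BRCA2 was not called (39.4 ± 0.777 to 40.2 ± 4.61 CPM). BRIP1, a helicase, fell by 1.50 ± 0.10.

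Genes of these phases are read by E2F through TTTNGCGC and by the MuvB complexes through the cell cycle homology region TTTGAA, often with CCAAT boxes bound by NF-Y. E2F1 and E2F2 are shown as G1/S members, and ASPM, CCNB1 and KIF20A as mitotic members. Capitals mark 1 motif per stretch, the E2F letters in E2F1 and E2F2, the cell cycle homology letters in ASPM and CCAAT in CCNB1 and KIF20A, on either strand; other motifs in a stretch are left in lower case (RefSeq, GRCh38.p14, strand of the gene).
E2F1: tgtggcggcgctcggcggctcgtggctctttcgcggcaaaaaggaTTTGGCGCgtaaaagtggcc
E2F2: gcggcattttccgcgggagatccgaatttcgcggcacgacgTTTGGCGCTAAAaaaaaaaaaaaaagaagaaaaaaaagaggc
ASPM: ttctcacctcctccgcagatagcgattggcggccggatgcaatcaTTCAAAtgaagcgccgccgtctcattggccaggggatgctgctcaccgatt
CCNB1: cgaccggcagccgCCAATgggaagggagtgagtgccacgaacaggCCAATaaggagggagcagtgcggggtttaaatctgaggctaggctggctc
KIF20A: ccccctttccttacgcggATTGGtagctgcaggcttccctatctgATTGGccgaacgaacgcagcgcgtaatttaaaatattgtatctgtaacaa
The E2F1 stretch is chr20:33686386-33686450, minus strand, and E2F1 fell by 0.84 ± 0.07. The E2F2 stretch is chr1:23531234-23531316, minus strand, where 2 overlapping matches on opposite strands form the capitals. The ASPM stretch is chr1:197146732-197146827, minus strand, and ASPM, a spindle protein, fell by 1.71 ± 0.05. The CCNB1 stretch is chr5:69167050-69167144, plus strand and the KIF20A stretch chr5:138179000-138179094, plus strand. The E2F letters were in 16 of 33 G1/S promoters (48.5%) and in 319 of 10235 tested genes (3.12%). The cell cycle homology letters were in 21 of 31 mitotic promoters (67.7%) and in 9.16% of tested genes (937 of 10235). CCAAT was in 22 of the 31 (71.0%) and in 3746 tested genes (36.6%). Among all genes that fell at least 2-fold, 111 of 813 held the cell cycle homology letters (13.7%), against 764 of 8611 other tested genes (8.87%) and 4212 of all 27305 promoters (15.4%). The E2F letters were in 32 of these 813 genes (3.94%), in 25 of the 798 outside the G1/S list (3.13%), in 270 of the 8611 other tested genes (3.14%) and in 500 of all promoters (1.83%).

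Growth regulators did not follow the cell cycle genes in 1 direction. CCND1, cyclin D1, was at 435, 429.9 and 422 CPM in the vehicle libraries and 230.5, 242 and 224 CPM in the SR4 libraries (log2 change -0.89 ± 0.04). CCND2, cyclin D2, was almost absent with vehicle, at 0.212, 0.112 and 0.111 CPM, and was at 9.32, 11.3 and 11.2 CPM with SR4 (log2 change 6.06 ± 0.32). In the vehicle libraries 3 counts equalled 0.318 to 0.336 CPM, so the size of this rise rests on very few vehicle reads. MYC was at 86.6, 85.3 and 89.1 CPM in the vehicle libraries and 258, 274 and 259 CPM in the SR4 libraries and rose by 1.60 ± 0.04 (adjusted p = 1e-22). CDKN1A, which encodes the CDK inhibitor p21, was at 48.9, 49 and 45.8 CPM in the vehicle libraries and 29, 32.3 and 29.6 CPM in the SR4 libraries and fell by 0.66 ± 0.06. GADD45A, a stress sensor that ATF4 can also induce, was at 27.5, 26.7 and 24.3 CPM in the vehicle libraries and 234, 234 and 207 CPM in the SR4 libraries (log2 change 3.10 ± 0.06), and MDM2 was not called (112 ± 5.34 to 110.5 ± 3.38 CPM). In the BCL2 family and death receptors 7 of 17 rose and 8 fell. PMAIP1 (NOXA), which promotes death, rose by 2.26 ± 0.12 and TNFRSF10B, the TRAIL receptor DR5, by 1.67 ± 0.05. The survival genes MCL1 (0.63 ± 0.04) and BCL2L1 (0.64 ± 0.04) rose as well. BMF, another promoter of death, was at 19.8, 18.8 and 18 CPM in the vehicle libraries and 4.09, 4.47 and 4.44 CPM in the SR4 libraries (log2 change -2.12 ± 0.16).

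Ribosomal protein genes rose by small amounts. Of 70 cytosolic ribosomal protein genes 56 rose and 2 fell, RPL7A (-0.14 ± 0.04) and RPS10 (-0.96 ± 0.32), with a median of 0.27; most have processed copies that can share reads. The call of RPS10 was lost without SR4 replicate 1 (-0.75). RPL3 rose by 0.72 ± 0.03 and RPL12 by 0.63 ± 0.04. EEF1A1, an elongation factor that also has processed copies, went from 9006 ± 229.9 to 13768 ± 436 CPM (log2 change 0.61 ± 0.03). Of 27 translation factors 14 rose and 7 fell, and EIF1, which selects the start codon, rose by 1.21 ± 0.04. Ribosome biogenesis factors rose in 19 of 29 cases and fell in 4 (median 0.27), with RRP12 at 0.98 ± 0.04 and POLR1B at 0.88 ± 0.05 higher and POLR1A, the largest RNA polymerase I subunit, 0.70 ± 0.06 lower on the log2 scale. Host genes of small nucleolar RNAs, whose spliced transcripts are known to be degraded when translated, rose in 11 of 12 cases (median 1.25); SNHG3 was called only in part of the other settings, such as without vehicle replicate 2 (0.36) or SR4 replicate 2 (0.35). GAS5 was at 50.7, 55.9 and 51.4 CPM in the vehicle libraries and 307, 312 and 316 CPM in the SR4 libraries (log2 change 2.56 ± 0.05). ZFAS1 rose by 2.25 ± 0.06; it overlaps the end of ZNFX1 on the opposite strand. SNHG1 rose by 1.76 ± 0.06. Among nuclear-retained RNAs NEAT1, the scaffold of paraspeckles, was at 82.8, 155 and 138 CPM in the vehicle libraries and 691, 319.8 and 761 CPM in the SR4 libraries (log2 change 2.24 ± 0.25), with SR4 replicate 2 well below the others; the change was 2.54 without it. TUG1 (-1.02 ± 0.06) and NORAD (-0.80 ± 0.05) fell.

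Targets of the Hippo pathway effector YAP rose in 13 of 18 cases and fell in 4 (median 0.57). CTGF, a secreted matricellular protein, was at 227, 235 and 234 CPM in the vehicle libraries and 2544, 2673 and 2378 CPM in the SR4 libraries. It rose by 3.45 ± 0.05 (adjusted p = 1.1e-28), or 10.9-fold. CYR61, its relative, was at 623, 607 and 584 CPM in the vehicle libraries and 3055, 3224 and 2850.5 CPM in the SR4 libraries (log2 change 2.33 ± 0.04). AMOTL2 rose by 0.91 ± 0.05 whereas AMOTL1, its paralogue, fell by 1.29 ± 0.06. The first 2 genes were separated between groups in every library.

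Receptor signalling genes rose at several points and fell at others. Of 9 EGF receptor and ligand genes 7 rose and 1, ERBB2 (-0.88 ± 0.09), fell. EGFR was at 547, 530.1 and 493 CPM in the vehicle libraries and 1244, 1234 and 1257 CPM in the SR4 libraries (log2 change 1.25 ± 0.05). ERRFI1, its feedback inhibitor, was at 599, 578 and 562 CPM in the vehicle libraries and 3219, 3093 and 3254 CPM in the SR4 libraries (log2 change 2.46 ± 0.03). IRS2, an adaptor of the insulin receptor, was at 13.6, 17.3 and 13.3 CPM in the vehicle libraries and 121, 127 and 125 CPM in the SR4 libraries (log2 change 3.08 ± 0.07). EGFR, ERRFI1 and IRS2 showed no overlap of groups. IRS2 had the largest rise of the list of IGF receptors and binding proteins. Of its 11 tested genes 4 rose and 5 fell (median -0.15). Immediate early genes rose in 13 of 20 cases and fell in 5: MAFF rose by 2.41 ± 0.12 and FOSL2 by 1.34 ± 0.05, while FOS (-2.42 ± 0.41), EGR1, IER2 (-0.71 ± 0.09), IER3 (-0.29 ± 0.05) and IER5 (-0.92 ± 0.08) fell. Among ERK feedback genes 5 of 15 rose and 6 fell, DUSP5 upward by 2.29 ± 0.05 and SPRY1 downward by 1.05 ± 0.09. TGF-beta responsive genes were split 8 up and 7 down of 18, with SMAD3 at -0.83 ± 0.04. In WNT targets 3 of 7 rose and 3 fell, among them RNF43, a WNT receptor ubiquitin ligase, which was at 4.46, 5.6 and 5.22 CPM in the vehicle libraries and 0.419, 0.639 and 0.31 CPM in the SR4 libraries (log2 change -3.45 ± 0.32). Inflammatory lists were mixed too: 4 of 14 NF-kB genes rose and 6 fell, and 5 of 20 interferon response genes rose and 7 fell, with IRF7 at 1.58 ± 0.10 and IFIT1 at -2.07 ± 0.15. In antigen presentation 4 of 12 genes rose and 7 fell, with TAPBP at -0.94 ± 0.04; HLA genes are highly polymorphic and alike, and their reads may be split. Of 7 tested AHR pathway genes 3 rose and 2 fell: AHR rose by 1.40 ± 0.05 and its target CYP1B1 fell by 1.65 ± 0.06.

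Epithelial and matrix genes changed gene by gene. The keratins KRT8 (-0.98 ± 0.04), KRT18 (-0.69 ± 0.04) and KRT19 (-1.28 ± 0.05) fell, and VIM, vimentin, was at 4256, 4173 and 4171 CPM in the vehicle libraries and 4559, 4911 and 4371 CPM in the SR4 libraries (log2 change 0.14 ± 0.03). CDH1, E-cadherin, was at 14.5, 19.3 and 18.8 CPM in the vehicle libraries and 7.86, 9.26 and 10.1 CPM in the SR4 libraries (log2 change -0.94 ± 0.13), while the tight junction genes CLDN1 (1.40 ± 0.08) and OCLN (0.98 ± 0.05) rose. ZEB1, a repressor of E-cadherin, rose by 1.11 ± 0.05. Over the epithelial list 7 of 17 rose and 6 fell, and over the mesenchymal list 3 of 12 rose and 7 fell. Of 20 collagen and laminin genes 4 rose and 6 fell, and COL5A1 fell by 1.46 ± 0.07. Integrins fell in 7 of 11 cases and rose in 2, ITGB3 (0.36 ± 0.09) and ITGA3 (0.09 ± 0.03). ITGA6 fell by 0.96 ± 0.04 and ITGB5 by 0.75 ± 0.04. The protease MMP2 fell by 1.43 ± 0.06 and its inhibitor TIMP2 by 1.07 ± 0.07. Over 12 tested matrix proteases and inhibitors 4 rose and 5 fell. The metallothionein gene MT1E fell by 0.80 ± 0.10. Its list, with a zinc exporter, had 5 tested genes, of which 1 rose and 3 fell. Of 6 tested replication-dependent histone genes 5 rose, HIST1H1C by 1.91 ± 0.12; their mRNAs normally lack a poly(A) tail, and the labels describe an mRNA library kit.

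**Figure D3:**
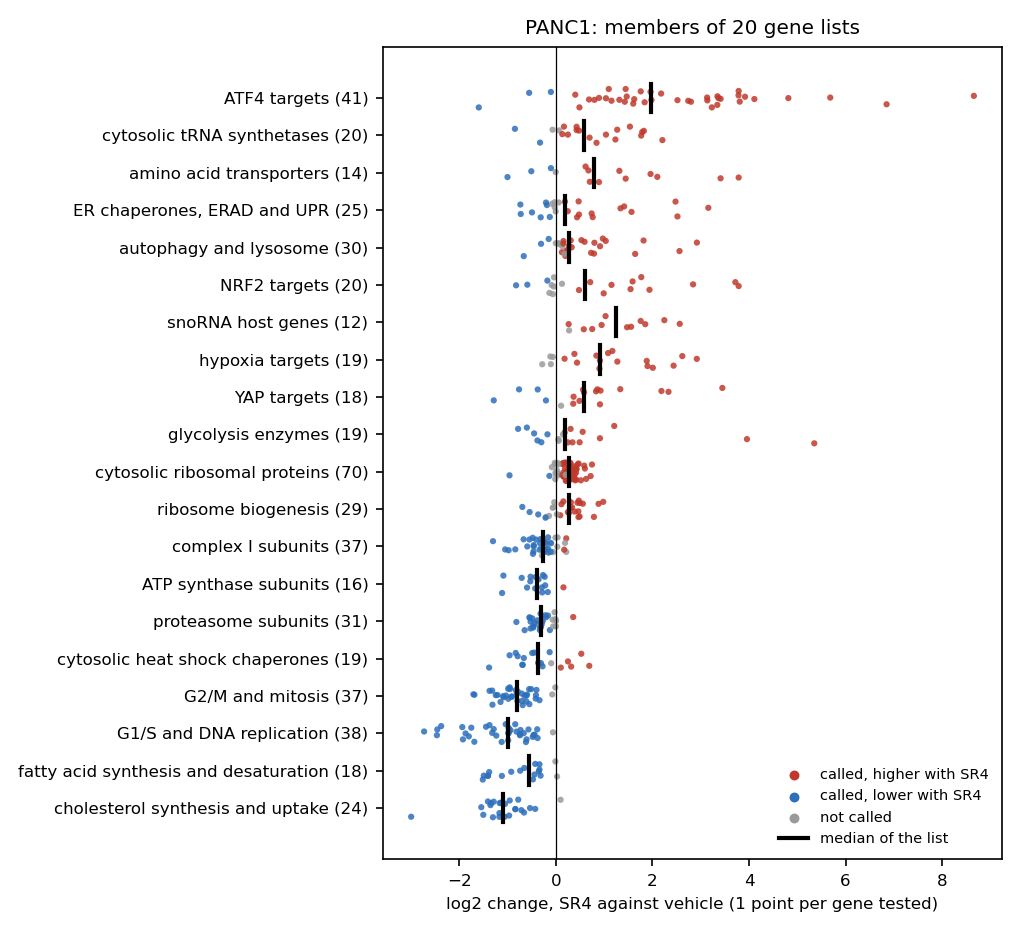
Log2 change with SR4 over vehicle in PANC1 (horizontal axis) for the tested members of 20 gene lists, with the number tested in parentheses. Each point is a gene, coloured by whether it was called higher, lower or not called, and each black bar is the list median, from 1.98 for ATF4 targets to -1.10 for cholesterol synthesis and uptake.

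The same dose and time in BXPC3 gave a response that was partly shared and partly of opposite sign. The PANC1 and BXPC3 comparisons have no library in common. In BXPC3, 4310 of 12920 tested genes were higher with SR4 and 4375 lower. The list counts for BXPC3 below stand against these shares. Across 11538 genes tested in both lines the log2 changes had Pearson's r of 0.504 and Spearman's rho of 0.478, a description across genes, which are not independent replicates. Of 6025 genes called in both lines 4694 moved in the same direction and 1331 in opposite directions, 634 up in PANC1 and down in BXPC3 and 697 the reverse. The test of the difference between the responses was passed by 7126 of 13930 genes (51.2%). Values below give the PANC1 change minus the BXPC3 change.

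ATF4 targets rose in both lines, whereas the cholesterol list had a negative median in PANC1 and a positive one in BXPC3. ATF4 targets rose in 38 of 40 tested genes in BXPC3, with a median of 1.85; the difference was passed by 17 genes upward and 11 downward. ASNS rose by 3.35 ± 0.05 in BXPC3, and the difference of -0.01 ± 0.07 did not pass (adjusted p = 0.93). ATF3 rose more in PANC1, with a difference of 2.62 ± 0.16 (adjusted p = 6.6e-17), and HSPA5 likewise, by 2.46 ± 0.04. Cholesterol genes rose in 12 and fell in 4 of 24 in BXPC3 (median 0.20), and all 24 differences passed, each lower in PANC1. HMGCS1 changed by 0.26 ± 0.04 in BXPC3, from 356 ± 14.8 to 427 ± 4.06 CPM, a difference of -1.67 ± 0.06 (adjusted p = 2.8e-23). INSIG1 rose there by 0.80 ± 0.04 (difference -2.35 ± 0.07). In fatty acid synthesis 12 of 18 differences passed, again all lower in PANC1.

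Hypoxia and YAP targets had more positive than negative differences, and those of SLC2A1 and HK2 were positive. Of 18 hypoxia targets tested in BXPC3 6 rose and 6 fell (median -0.05), about the shares over all genes there. Of the differences 12 were positive and 2 negative. SLC2A1 fell by 0.43 in BXPC3, from 409.9 ± 21.6 to 305 ± 1.28 CPM, and its difference was 2.86 ± 0.08 (adjusted p = 5.5e-28). HK2 differed by 3.44 ± 0.11. YAP targets rose in 5 and fell in 9 of 18 in BXPC3, with 11 positive and 5 negative differences. CTGF, which fell there from 10.8 ± 0.903 to 7.02 ± 0.917 CPM, differed by 4.07 ± 0.15 (adjusted p = 1e-23). UCP2 fell in BXPC3 by 1.50 on the log2 scale, a difference of 2.45 ± 0.15. Ribosome biogenesis genes fell in 22 and rose in 1 of 29 in BXPC3, with 23 positive differences and 1 negative.

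Cell cycle genes fell in both lines but less in PANC1. The G1/S list had a median of -2.10 in BXPC3 and the G2/M list -1.85, with 33 of 38 and 35 of 37 differences positive and 1 of the G1/S genes, CCNE1, negative (-0.71 ± 0.16). TYMS fell by 3.65 in BXPC3 (difference 2.45 ± 0.10), and MKI67 by 2.04 (difference 1.01 ± 0.13). CDKN1A rose in BXPC3, from 169 ± 5.46 to 332 ± 9.11 CPM, and differed by -1.64 ± 0.07. The gene with the largest positive difference was CCND2, at 7.52 ± 0.33: in BXPC3 it fell from 29.7 ± 1.38 to 10.7 ± 0.906 CPM. Its PANC1 vehicle libraries held very few reads, so the size of this difference is uncertain. BMF was among the largest negative differences, at -4.16 ± 0.20, and rose in BXPC3 from 4.28 ± 0.731 to 17.6 ± 1.94 CPM. NQO1, not called in PANC1, rose by 1.89 ± 0.04 in BXPC3, a difference of -1.96 ± 0.07. Others among the largest differences, MAL2, C1orf116, FERMT3, TP63 and HS3ST1, were under 1 CPM in both PANC1 groups, and little can be read from them.

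**Figure D4:**
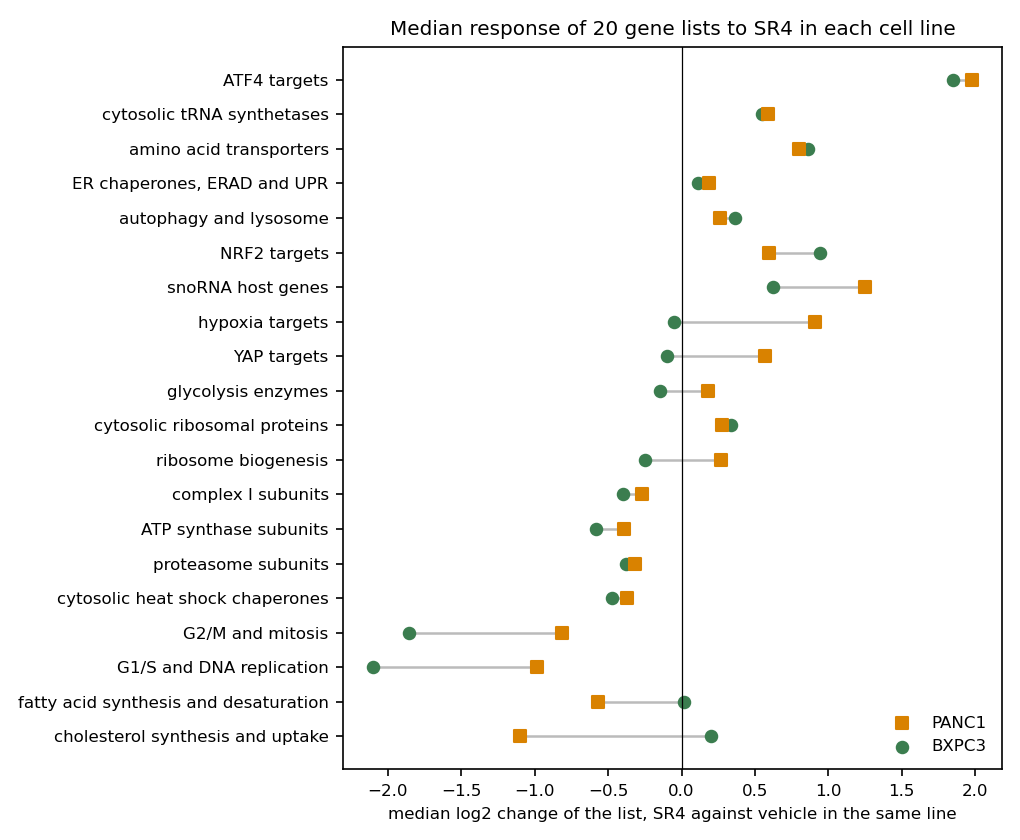
Median log2 change with SR4 over vehicle (horizontal axis) of each gene list in PANC1 (squares) and BXPC3 (circles), joined by a grey line. The G1/S list reads -0.98 in PANC1 and -2.10 in BXPC3, and the cholesterol list -1.10 and 0.20.

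Lonidamine, an inhibitor of mitochondrial pyruvate and lactate carriers and of respiratory complex II, was the other single agent in PANC1. The labels give 300 uM lonidamine against 5 uM SR4, so the compounds were not matched in dose and the values stand side by side without a ranking of the compounds. SR4 was tested directly against lonidamine, with no vehicle library in the contrast: 4175 genes were higher with SR4 and 4111 lower, 66.2% of those tested.

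ATF4 targets lay on both sides of lonidamine, 17 above and 20 below, with a median difference of -0.10. DDIT3 averaged 146 ± 3.22 CPM with lonidamine and differed by 0.77 ± 0.04, and ATF4 averaged 577 ± 3.39 CPM and did not pass (adjusted p = 0.26). CTGF, the YAP target, averaged 270.2 ± 18.6 CPM with lonidamine and was 3.23 ± 0.05 higher on the log2 scale with SR4 (adjusted p = 8.9e-28), and TGFB2 was 3.06 ± 0.08 higher; 12 of the 18 were above and 2 below lonidamine. Glycolysis genes were higher with SR4 in 16 of 19 cases and lower in 1, and hypoxia targets in 13 of 19 and lower in 2. G2/M genes were higher with SR4 in 36 of 37 cases, CDC25B excepted (-0.54 ± 0.05), with a median difference of 0.87. Cholesterol genes were lower with SR4 in 23 of 24 cases and higher in none (median -0.90); HMGCS1 averaged 95.3 ± 2.71 CPM with lonidamine, a difference of -0.98 ± 0.05. TXNIP averaged 6.17 ± 1.59 CPM with lonidamine and was lower with SR4 by -2.64 ± 0.26. CYP1B1 was among the largest differences below lonidamine, at -2.53 ± 0.05, with the hyaluronan synthase HAS3 (-2.70 ± 0.15) and the lipid droplet protein PLIN4 (-2.53 ± 0.13).

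**Figure D5:**
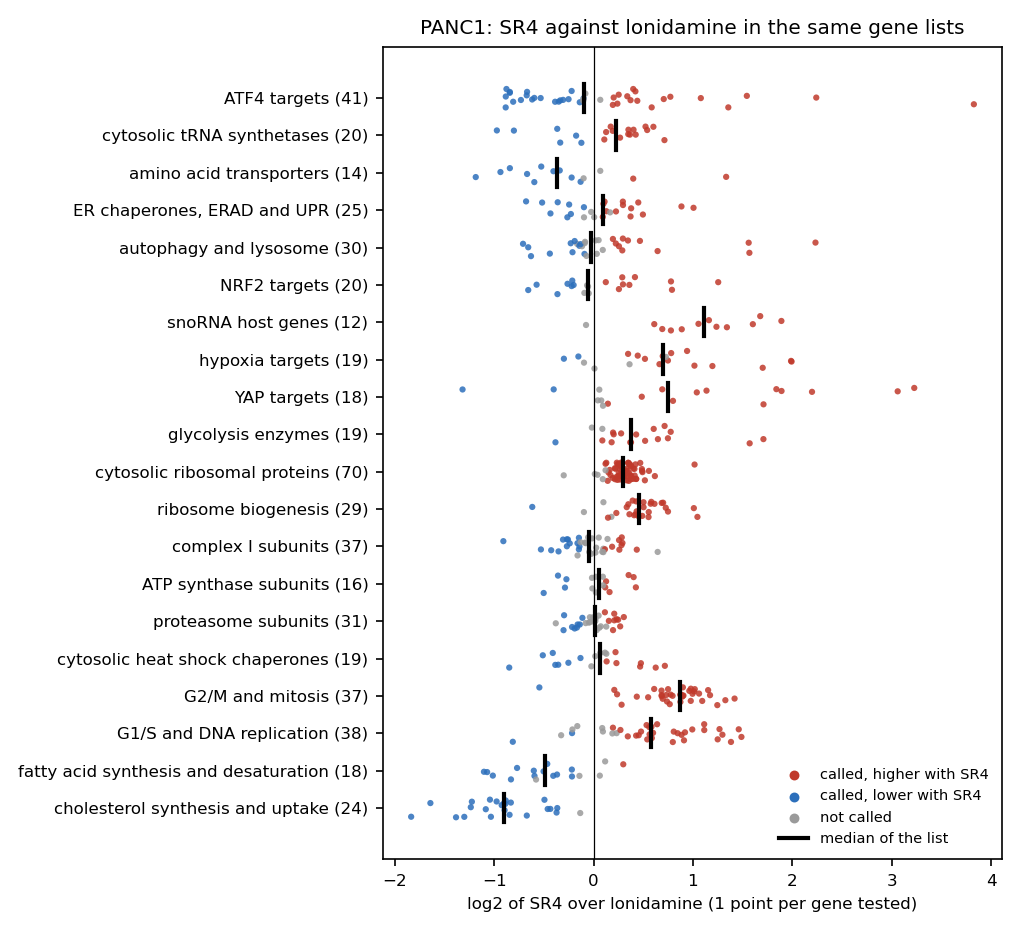
Log2 difference of SR4 over lonidamine in PANC1 (horizontal axis) for the tested members of the same 20 lists, with points for genes coloured by the call of this contrast and black bars for list medians. The medians are -0.10 for ATF4 targets, 0.87 for G2/M and mitosis and -0.90 for cholesterol synthesis and uptake; the doses of the compounds were not matched.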

How the data were processed

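RNA from 24 samples of PANC1 and BXPC3 cells was sequenced from an mRNA library kit, per the labels' protocols. The authors deposited raw read counts per gene symbol, 1 table per cell line. The submitters' processing notes name STAR 2.7.8a, Partek, DESeq2, GRCh38 and hg38. What each was used for, and the counting tool, annotation and strand setting, were not given in the sources used here; overlapping genes may share reads. No row lacked a gene name and no value column was left unused. Columns were matched to samples by cell line, treatment and replicate number in their names; The number of 1 SR4 column of BXPC3 matches no sample title of that group (the column has number 3, the remaining title number 4), so it was used as a replicate of its group without a number.

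The 12 PANC1 libraries were fitted together in edgeR 4.0.16 (R 4.3.3) with 1 mean per group and no other term, TMM scaling (factors 0.964 to 1.006 in the 6 libraries compared), the filterByExpr filter at a count of 10, and quasi-likelihood tests with 8 residual degrees of freedom, with Benjamini-Hochberg adjustment over all genes tested. The coefficient of variation from edgeR's common dispersion was 3.79%, among libraries whose differences may be technical. The standard error is the log2 change divided by the square root of F. The difference between lines came from a fit of all 24 libraries, and SR4 against lonidamine from the PANC1 fit. On simulated counts over 12388 genes with the sizes of this comparison, the fit recovered 85 of 100 changes of 0.5 and 97 of 100 changes of 1 on the log2 scale, and 8 of 190 calls were false. In that simulation few genes changed, none of low expected count, in random directions and at a single fixed dispersion. In the data 71.7% of tested genes were called, so these rates need not hold for this comparison.

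Alternatives were DESeq2 1.42.0 as test and as scaling, no filter, only the groups compared, the replicate number as a block and each library left out. Members and gene lists were chosen with earlier results of these data known. The genes named are by rule the 15 largest rises and falls without overlap between libraries at a mean log2 CPM of at least 2, the 4 members of each list with the smallest adjusted p, a panel of 40 genes, and the 5 largest differences each way against BXPC3 and lonidamine, each past the threshold of 0.05; not every such gene is printed, and some results are not reported here. Of 1319 list entries, 1317 matched a symbol of the table and 1 an older symbol. Promoters, 250 bases before to 50 after the first listed start, are from RefSeq (GRCh38.p14) and were matched by symbol for 10235 of the tested genes.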

Additional observations from a re-analysis of the deposited data

Results flagged for a closer look

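The response to SR4 differed between PANC1 and BXPC3 for 7126 genes by edgeR's quasi-likelihood test of the difference, with Benjamini-Hochberg adjustment. Among the 15 largest rises, the 15 largest falls and the panel of 40 genes, 10 of the genes reported here were called in opposite directions in the lines and passed that test. The following values are the log2 change in PANC1 minus that in BXPC3. Genes higher with SR4 in PANC1 and lower in BXPC3 were the glucose importer SLC2A1 (2.86), the inner membrane carrier UCP2 (2.45) and the YAP targets CTGF (4.07) and CYR61 (3.10). Those lower in PANC1 and higher in BXPC3 were the cholesterol genes HMGCS1 (-1.67) and INSIG1 (-2.35), the desaturase SCD (-0.94), the collagen gene COL1A1 (-3.05), the CDK inhibitor CDKN1A (-1.64) and TXNIP (-2.12), whose call in PANC1 was lost whichever PANC1 vehicle or SR4 library was left out. The rise of COL1A1 in BXPC3 was close to the threshold, at 0.30 ± 0.13 (adjusted p = 0.049 by the quasi-likelihood test in that line). Groups of 3 libraries are too small for a test of single outlying libraries, and none was made.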

How the results depend on the processing

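In no setting tried did a count over all genes move by over 1.5 times, but 15 of 140 counts of list members did in at least 1 setting, all of them counts that were 2 or fewer with all libraries in the fit. Genes higher with SR4 numbered 4140 to 4532 and genes lower 4291 to 4630, and 93.6% to 99.8% of the calls were shared. DESeq2's test called 8431 genes, all of them among the 8972 called here. Leaving out 1 library gave 4183 to 4284 genes higher and 4355 to 4495 lower. Libraries with the same number did not deviate together (r = -0.07, -0.10 and 0.01), and the numbers carry no stated pairing. A replicate block gave 4350 higher and 4567 lower genes, 3471 and 3183 for the difference between lines, and 4154 and 4068 against lonidamine. Under it EGLN1 (-0.12) and SREBF2 (0.10) were called and the call of TXNIP (-0.78) was lost. Among the genes named in the results, DESeq2's test lost the calls of TXNIP, CD8A, PDK4, SESN1, DNAJB1 and ATG16L1. With DESeq2 size factors the median change over all genes was again -0.02, and the difference between lines was higher in PANC1 for 3311 genes and lower for 3813, or 46.5% higher against 51.3% with TMM scaling; the direction of that balance depends on the scaling.

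The genes examined that changed sign were not called with all libraries in the fit. Leaving out 1 library gave ranges of -0.11 to 0.0471 for MANF, -0.0196 to 0.12 for GAPDH, -0.0335 to 0.00359 for CDC25B, -0.0588 to 0.11 for BRCA2, -0.056 to 0.0105 for MDM2, -0.34 to 0.30 for CA12 and -0.17 to 0.16 for MYLIP. With no low-count filter MANF was at 0.00296, and with only the groups compared MANF was at 0.0137, CDC25B at 0.00597 and MDM2 at 0.00164. For the difference between lines the ranges were -0.0346 to 0.30 for DDIT3, -0.13 to 0.12 for CDKN2C, -0.0845 to 0.0373 for ASNS, -1.53 to 0.75 for IGFBP3 and -0.0487 to 0.0375 for VIM. The cause was not tested.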
